A study of Homo sapiens with 6 samples.

Results

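The genes examined are 10 parts of the circadian clock: the activators CLOCK and BMAL1, the repressors PER1, PER2, PER3, CRY1 and CRY2, the nuclear receptors NR1D1 and NR1D2, and the output factor DBP. They were taken by name, as the probe sets that the platform annotation gives to exactly 1 gene symbol, and 9 of the 10 were measured, by 25 of 49293 probe sets. The only probe set that names NR1D1 names THRA as well, so NR1D1 has no value here. Averaged per gene, the 9 stand among 18132 genes. RNA of 6 samples labelled TPC-1, a human papillary thyroid carcinoma line, was hybridised to Affymetrix arrays, 1 per sample. Per the labels, 3 samples carried a lentivirus with control shRNA (shControl) and 3 a lentivirus with FAM60A shRNA (shFAM60A), with a genotype spelled FAM60A1 knockdown. All were grown in RPMI1640 with fetal bovine serum. The target is now named SINHCAF, and its protein belongs to the SIN3-HDAC co-repressor. The labels name neither the shRNA sequence nor a clone, and give no hour of harvest and no step that sets the cells to a common circadian phase.

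The clock is a loop of transcription and repression that runs in most cells. CLOCK and BMAL1 pair and bind E-boxes in the promoters of PER, CRY and NR1D genes, and the PER and CRY proteins return to the nucleus to block that pair. In a further loop the REV-ERB receptors, encoded by NR1D1 and NR1D2, repress BMAL1 through ROR elements, and DBP drives genes through D-boxes. Transcript levels of these genes cycle over the day, so a sample of unknown phase gives a level at an unknown point of the cycle.

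Promoter stretches that hold an E-box, a variant of it or a D-box are shown because the pair and DBP are known to act through such motifs. Over the 250 bases before each listed start, in 35116 windows of RefSeq (GRCh38.p14), the E-box CACGTG occurred in 6.34%, the variant CACGTT, called here E-prime box, in 4.55%, the D-boxes TTATGTAA or TTATGCAA in 1.61%, and a ROR element in 0.310%, on either strand. All 10 clock genes had a window, 15 windows in all. An E-box was in a window of 2 genes, PER1 and NR1D2, an E-prime box in one of 5 (CLOCK, PER2, CRY1, CRY2 and NR1D1), a D-box in one of 3 (PER1, PER3 and NR1D2) and a ROR element in one of CLOCK. Counted by window, as the percentages are, these motifs were in 2, 5, 3 and 1 of the 15. The windows of BMAL1 and DBP held none of them, so no ROR element of BMAL1 is among the matches. A match is a description of the letters and not a shown binding site. The stretches below run 5′ to 3′ on the strand of the gene, with the motif in capitals. PER1 is at chr17:8152417-8152587 on the minus strand, with the E-box and then the D-box. PER2 (chr2:238288772-238288837, minus strand) and CRY1 (chr12:107093603-107093668, minus strand) have the E-prime box, read on the opposite strand in CRY1, and PER3 (chr1:7784084-7784151, plus strand) has the D-box.
PER1: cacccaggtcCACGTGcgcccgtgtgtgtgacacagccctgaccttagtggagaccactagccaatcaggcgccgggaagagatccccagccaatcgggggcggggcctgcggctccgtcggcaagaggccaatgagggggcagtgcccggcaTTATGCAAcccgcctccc
PER2: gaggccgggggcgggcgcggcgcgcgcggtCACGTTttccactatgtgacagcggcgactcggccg
CRY1: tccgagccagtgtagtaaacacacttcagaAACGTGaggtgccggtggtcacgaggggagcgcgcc
PER3: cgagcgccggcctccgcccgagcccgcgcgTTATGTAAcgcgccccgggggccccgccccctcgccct

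Values are log2 expression values centred per probe set, so that 0 is the middle of its 6 arrays and levels of different genes cannot be compared. A coarse level class from before that centring can be read from the rounding of the numbers, in steps of 2 to 4, 4 to 8 and 8 or more on the log2 scale. The reading is approximate. A probe set whose values all happen to fit a coarser rounding is put in too high a class, at a rate not given here. Of 17 control tags that have no target, 16 fell in the lowest class, which therefore lies near background. Of the 25 clock probe sets, 4 were in the lowest class, 15 in the middle class and 6 in the highest.

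SINHCAF ran against the labels. Its log2 value was -0.58, -0.66 and -0.68 in shControl replicates 1 to 3 and 0.63, 0.57 and 0.60 in shFAM60A replicates 1 to 3, 1.24 ± 0.038 higher on the log2 scale (SE, 3 arrays per label; limma, adjusted p = 1.08e-06). Each difference below is therefore one between arrays labelled shFAM60A and arrays labelled shControl, and no loss of SINHCAF was measured. The extraction protocol names DLD1, a colorectal line, in place of TPC-1. Of 8 thyroid markers, 7 were measured, with 7 of 16 probe sets in the lowest class and 0 in the highest, and their summed log2 value was 0.47 to 0.51 in the shControl arrays and -0.82 to -0.50 in the shFAM60A arrays. That shift came from HHEX, which fell by 0.97 (limma, adjusted p = 6.75e-05), while the other 6 were not called and the median difference of the 7 was -0.0051. Of 8 intestinal markers, 8 were measured, with 6 of 18 probe sets in the lowest class and 4 in the highest, those of CDX2, CDH17 and KRT20, and their sum was -2.79 to -2.52 in the shControl arrays and 2.62 to 2.69 in the shFAM60A arrays. Of these 8, CDX2, CDH17, KRT20 and LGR5 rose, each by 0.82 or more, and 4 were not called, where 44.9% of all genes passed in either direction. The 3′ minus 5′ control values of GAPDH and ACTB overlapped between the labels, with two-sided exact permutation p = 0.4 and 0.3. The array median of all probe sets did not overlap, at 0.00089 to 0.010 in the shControl arrays and -0.015 to -0.00055 in the shFAM60A arrays (exact permutation p = 0.1). These 5 called markers move with the labels, and so with each difference given below, and their part in these results was not tested. Nothing in the labels says that the samples of a group grew as separate cultures, so the p-values here rest on the spread of these 6 samples, which may be technical.

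CLOCK and DBP rose and CRY1 fell in the arrays labelled shFAM60A, while BMAL1, the 3 PER genes, CRY2 and NR1D2 did not pass the test as gene means. The called differences were a 1.18-fold rise of CLOCK, a 1.30-fold rise of DBP and a 1.17-fold fall of CRY1. That makes 3 of 9 genes past the adjusted threshold of 0.05 (limma, 3 arrays per label), where 44.9% of all genes passed. By direction 2 of 9 rose, beside 19.8% of all genes, and 1 of 9 fell, beside 25.0%. The groups did not overlap in 6 of the 9, beside 53.2% of all genes, and the median log2 difference was 0.068, beside -0.012 for all genes. The share of clock genes called was thus not above that background.

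**Figure D1:**
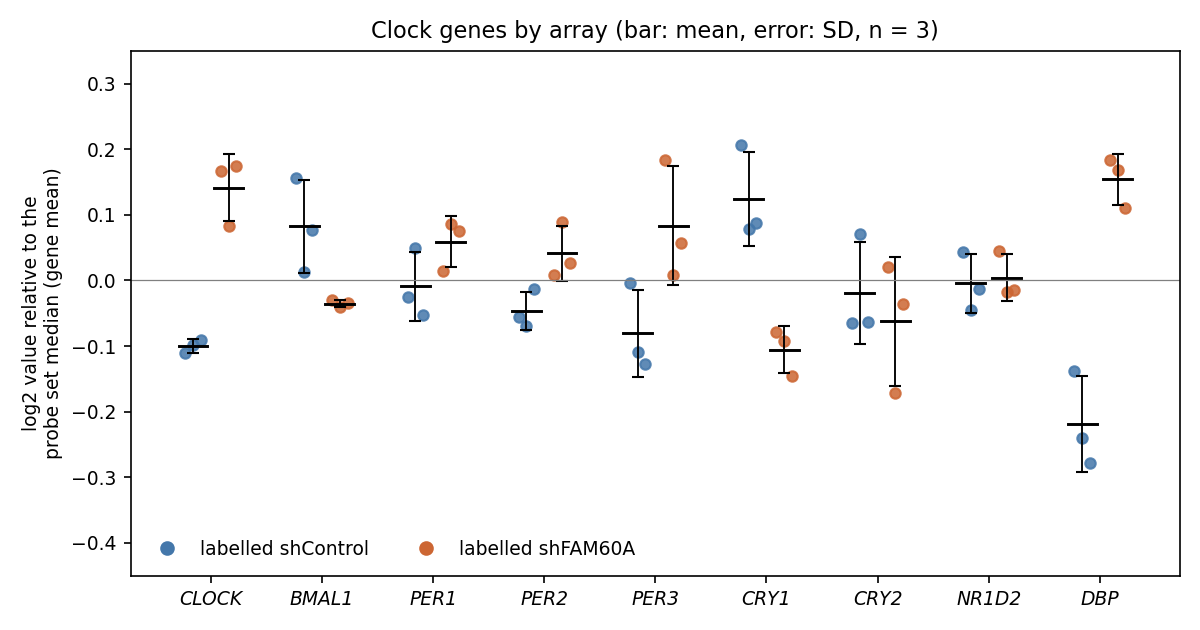
Centred log2 value (vertical axis) of the 9 measured clock genes (horizontal axis) in each array, with shControl arrays in blue and shFAM60A arrays in orange; bars are means and error bars SDs, n = 3. CLOCK and DBP are higher and CRY1 lower in every shFAM60A array than in any shControl array, and NR1D2 overlaps.

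CLOCK, one partner of the activating pair, had log2 values of -0.11, -0.099 and -0.091 in the shControl arrays and 0.17, 0.082 and 0.17 in the shFAM60A arrays. All 3 shFAM60A arrays lay above all 3 shControl arrays. The log2 difference was 0.24 ± 0.036 (SE; limma, adjusted p = 0.0011), larger in size than that of 71.4% of all genes. Both of its probe sets passed, 11727626_a_at at 0.20 in the highest level class and 11749633_a_at at 0.28 in the middle class.

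BMAL1, the other partner, had the opposite sign and did not pass. Its values were 0.16, 0.013 and 0.077 in the shControl arrays and -0.031, -0.041 and -0.035 in the shFAM60A arrays. The shFAM60A arrays were close to each other and below every shControl array, whereas the shControl arrays were spread over more than the difference between the groups. The log2 difference was -0.12 ± 0.042 (SE; 95% CI -0.22 to -0.019; limma, adjusted p = 0.056). Without shControl replicate 2 it was -0.15 with an adjusted p of 0.025, which made BMAL1 a called fall and the number of falls 2. All 3 of its probe sets had a negative difference, from -0.15 to -0.091, and 1 of them, 11741091_a_at, passed (adjusted p = 0.019), a call that was lost when shControl replicate 3 or shFAM60A replicate 1 or 2 was left out (adjusted p 0.0514 to 0.0665).

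The distance between the partners shifted in every array. CLOCK minus BMAL1, as a difference of centred log2 values, was -0.27, -0.11 and -0.17 in the shControl arrays and 0.20, 0.12 and 0.21 in the shFAM60A arrays, a shift of 0.36 between the group means. Because each probe set is set to its own median, this is a relative shift and not the ratio of the transcripts. The mean of the 2 activators was -0.0090 ± 0.033 (SD, n = 3) in the shControl arrays and 0.053 ± 0.028 in the shFAM60A arrays. The mean of the 6 measured repressors (PER1, PER2, PER3, CRY1, CRY2 and NR1D2) was -0.0059 ± 0.024 and 0.0033 ± 0.026. Activators minus repressors therefore went from -0.0030 ± 0.032 to 0.050 ± 0.023, a difference of 0.053 that was given no test. It was 0.035 without shControl replicate 2 and 0.13 without the probe sets of the lowest level class. Each side averages members of opposite sign, CLOCK with BMAL1 and the PER genes with CRY1.

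DBP, the output activator that binds D-boxes, had the largest gene-level difference of the 9. Its values were -0.14, -0.24 and -0.28 in the shControl arrays and 0.18, 0.17 and 0.11 in the shFAM60A arrays. Every shFAM60A array lay above every shControl array, by at least the spread within either group. The log2 difference was 0.37 ± 0.045 (SE; limma, adjusted p = 3.99e-04), and its 2 probe sets were at 0.38 and 0.37, both in the middle level class and both called. Both are of the type named s_at, which marks probes shared between transcripts of more than 1 gene, so the share of other transcripts in this value is not known.

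The PER genes encode the subunits that carry the repressor complex into the nucleus. As gene means PER1 had values of -0.025, 0.050 and -0.053 in the shControl arrays and 0.014, 0.086 and 0.076 in the shFAM60A arrays, which overlap (log2 difference 0.068; limma, adjusted p = 0.22). PER2 had -0.056, -0.070 and -0.014 against 0.0079, 0.089 and 0.027, without overlap (0.088; adjusted p = 0.087). PER3 had -0.0044, -0.11 and -0.13 against 0.18, 0.0088 and 0.057, also without overlap (0.16 with a 95% CI of 0.031 to 0.30; adjusted p = 0.051). All 3 differences were positive and none passed, and that of PER3 did pass when the arrays were scaled again (adjusted p 0.0361 to 0.0448 over 3 scalings), and without shControl replicate 1 or shFAM60A replicate 2 (0.20 in both, adjusted p = 0.0337 and 0.0374).

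Single probe sets of PER1 and PER2 moved more than the gene means. Probe set 11717168_a_at of PER1 had -0.13, -0.12 and -0.15 in the shControl arrays and 0.12, 0.22 and 0.28 in the shFAM60A arrays, a log2 difference of 0.34 (limma over all probe sets, adjusted p = 0.0013). The other 2 of PER1 were at -0.094 and -0.042 and did not pass, though all 3 lie in the middle level class. Probe set 11758315_s_at of PER2 had -0.17, -0.28 and -0.28 against 0.20, 0.24 and 0.17, a difference of 0.45 (adjusted p = 2.63e-04). It is of the type s_at, so the share of other transcripts in it is not known. Without probe sets named x_at or s_at the gene-level difference of PER2 was -0.016 (limma, adjusted p = 0.79). The remaining 4 of PER2 ran from -0.15 to 0.078 and did not pass, though 11753100_a_at was a called fall of 0.22 without shControl replicate 1 (adjusted p = 0.032) and of 0.15 with the replicate number as a block (adjusted p = 0.0449). In PER3, 11745947_a_at passed at 0.13 (adjusted p = 0.047), in the lowest level class, and lost that call without shControl replicate 1 or 2 or any of the shFAM60A arrays (adjusted p 0.0753 to 0.142). With the replicate number as a block it also lost the call (adjusted p = 0.0851). The other 2 were at 0.21 and 0.15, and the former, 11719045_a_at, passed with that block (0.21, adjusted p = 0.0313) and without shFAM60A replicate 2 (0.31, adjusted p = 0.038). A gene mean of PER1 or PER2 thus joins 1 probe set that moved with several that did not pass.

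The cryptochromes CRY1 and CRY2 are the main transcriptional repressors of the pair. CRY1 has 1 probe set, in the highest level class, with values of 0.21, 0.079 and 0.087 in the shControl arrays and -0.079, -0.092 and -0.15 in the shFAM60A arrays. The groups were apart, with the highest shFAM60A array below the lowest shControl array. The log2 difference was -0.23 ± 0.045 (SE; limma, adjusted p = 0.0042).

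CRY2 gave opposite calls from its 2 probe sets. Probe set 11719310_a_at, of the middle level class, had 0.21, 0.23 and 0.32 in the shControl arrays and -0.24, -0.43 and -0.21 in the shFAM60A arrays, a fall of 0.55 ± 0.068 on the log2 scale (SE; limma, adjusted p = 6.06e-04). Probe set 11719311_a_at, of the lowest class, had -0.34, -0.087 and -0.45 against 0.28, 0.087 and 0.14, a rise of 0.46 ± 0.099 (adjusted p = 0.0080). In neither did the groups overlap, and the difference between the 2 within an array was -0.55, -0.32 and -0.77 in the shControl arrays and 0.52, 0.52 and 0.35 in the shFAM60A arrays. The gene mean, -0.043 ± 0.061 (SE; adjusted p = 0.63), is the mean of these and describes neither. With the lowest level class left out CRY2 was a called fall of 0.55 on the log2 scale (adjusted p = 2.93e-04).

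**Figure D2:**
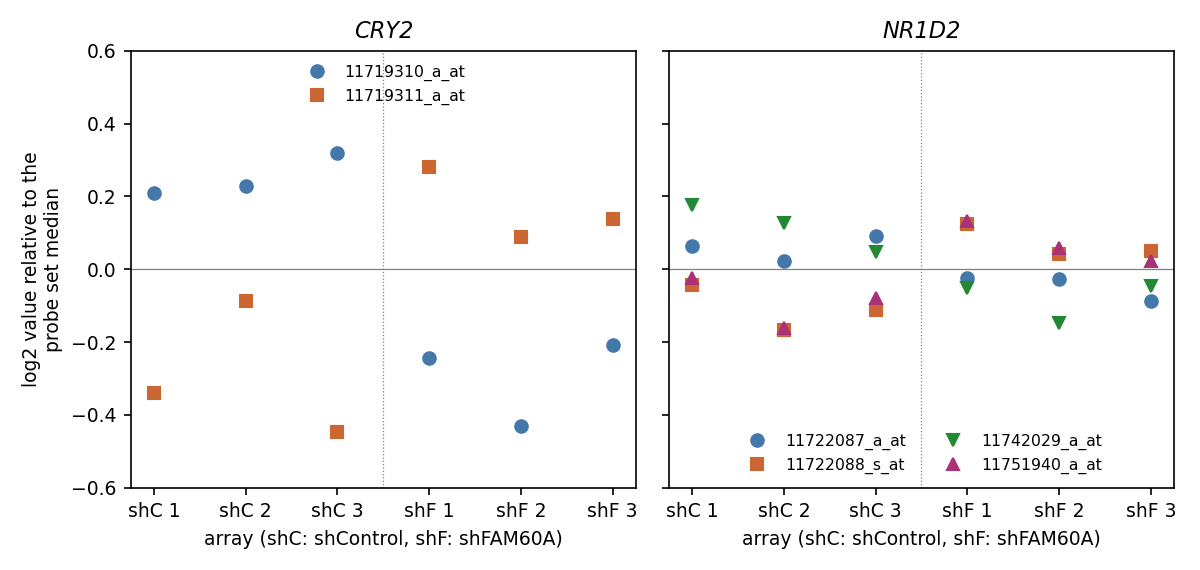
Log2 value relative to the probe set median (vertical axis) in each array (horizontal axis) for the 2 probe sets of CRY2 (left) and the 4 of NR1D2 (right), 1 symbol per probe set. The CRY2 probe sets change places between the labels, and those of NR1D2 separate into 2 that are higher and 2 that are lower in the shFAM60A arrays.

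NR1D2, which encodes the REV-ERB beta receptor, also had probe sets called in both directions. Probe sets 11722088_s_at and 11751940_a_at rose by 0.18 and 0.16 (limma, adjusted p = 0.022 and 0.048), 11742029_a_at fell by 0.20 (adjusted p = 0.018), and 11722087_a_at was at -0.11 (adjusted p = 0.082). In all 4 the labels did not overlap, and 3 of the 4 were in the highest level class. The values of 11742029_a_at were 0.18, 0.13 and 0.047 in the shControl arrays and -0.052, -0.15 and -0.047 in the shFAM60A arrays, and those of 11722088_s_at were -0.043, -0.17 and -0.11 against 0.13, 0.043 and 0.052. The gene mean was 0.0086 ± 0.037 (SE; adjusted p = 0.88). These calls are near the threshold: that of 11742029_a_at was lost without shControl replicate 1 or 2 or shFAM60A replicate 2 (adjusted p 0.0562 to 0.0615), that of 11722088_s_at without shControl replicate 2 or 3 or shFAM60A replicate 1 (0.0621 to 0.0727), and that of 11751940_a_at without any array but shControl replicate 1 (0.0587 to 0.142).

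Counted per probe set, 10 clock probe sets rose and 4 fell, 14 of 25, where 40.8% of all probe sets passed, 18.1% upward and 22.7% downward. In 16 of the 25 the labels did not overlap, beside 50.4% of all. Members with 2 or more probe sets numbered 8, and 2 of them, CRY2 and NR1D2, had calls in both directions, beside 3.71% of the 11734 genes with 2 or more. Among the 4739 genes with exactly 2 probe sets, 1.35% had opposite calls as CRY2 did. NR1D2 has 4 probe sets, and no share was taken over genes with that number. Probe sets of 1 gene share their RNA and are no replicates of each other.

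**Figure D3:**
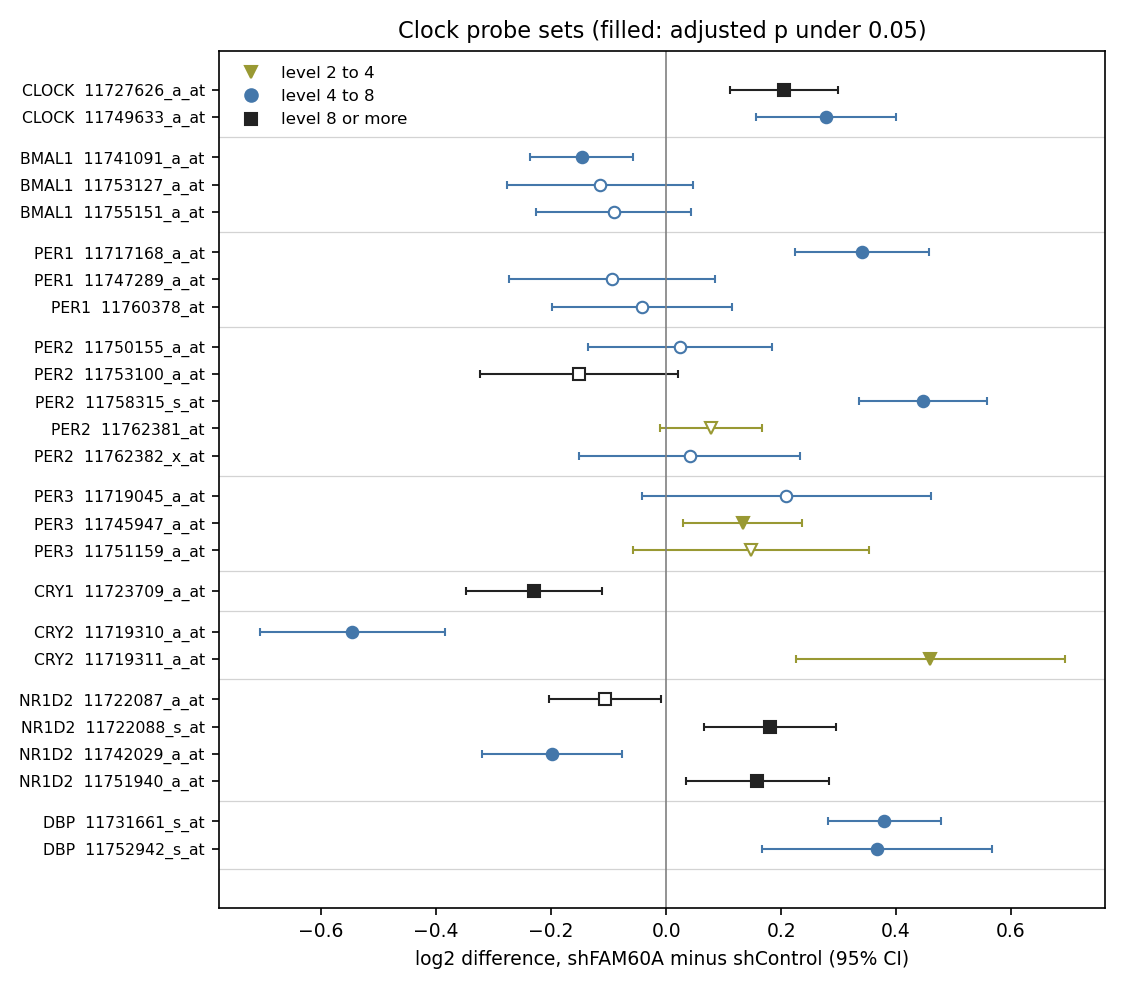
Log2 difference, shFAM60A minus shControl, with its 95% CI (horizontal axis) for the 25 clock probe sets (vertical axis), filled where the adjusted p is under 0.05 and shaped by level class. The 2 probe sets of CRY2 lie at -0.55 and 0.46, on opposite sides of 0.

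Several other genes of the pathway had larger differences than any of the 9. Of 39 listed genes, 34 were measured: 10 rose, 13 fell and 11 missed the threshold, where 44.9% of all genes passed, 19.8% higher and 25.0% lower. Their median log2 difference was -0.065, beside -0.012 for all genes, and the groups did not overlap in 25 of the 34, beside 53.2% of all genes. NPAS2, the paralogue of CLOCK that can replace it as partner of BMAL1, rose 2.08-fold. Its values were -0.46, -0.60 and -0.49 in the shControl arrays and 0.47, 0.48 and 0.66 in the shFAM60A arrays, a log2 difference of 1.06 ± 0.062 (SE; limma, adjusted p = 1.18e-05). All 4 of its probe sets rose, from 0.44 to 1.56, so the direction was shared although the size was not. BMAL2, the paralogue of BMAL1, fell by 0.23 with 1 probe set (adjusted p = 0.0018), so that in each pair of paralogues the sign was that of the core member. RORA, a receptor that activates BMAL1 where REV-ERB represses it, rose by 0.20 (adjusted p = 0.0015), with 2 of 3 probe sets called and 1 at -0.10. RORB was at -0.081 with both probe sets in the lowest class (adjusted p = 0.44).

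Of the 6 output and feedback factors, 3 rose and 2 fell, beside 19.8% and 25.0% of all genes. BHLHE40, a repressor that competes with the pair at E-boxes, rose 2.04-fold, with values of -0.56, -0.60 and -0.44 in the shControl arrays and 0.59, 0.46 and 0.44 in the shFAM60A arrays (log2 difference 1.03 ± 0.059; limma, adjusted p = 1.13e-05). Its paralogue BHLHE41 fell by 0.38 (adjusted p = 7.92e-04), with values of 0.18, 0.14 and 0.24 against -0.23, -0.25 and -0.090. That fall came from 1 of 3 probe sets, at -0.87, while the other 2 were at -0.15 and -0.11, and it was lost with the median of the probe sets (-0.21, adjusted p = 0.080) and when probe sets ending in x_at or s_at were dropped (-0.13, limma, adjusted p = 0.19). NFIL3, which represses at the D-boxes where DBP activates, rose by 0.26 (adjusted p = 5.27e-04). CIART, a repressor of the pair, rose by 0.20 in a probe set of the lowest class (adjusted p = 0.015). TEF, a relative of DBP, fell by 0.20 (limma, adjusted p = 0.018), with 1 of 2 probe sets called, at -0.36, and the other at -0.038. Its gene-level call was lost without shFAM60A replicate 1 (-0.17, adjusted p = 0.0605) or replicate 3 (-0.20, adjusted p = 0.0508). HLF, another relative, was at 0.044 (adjusted p = 0.34).

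Of 11 measured kinases, ligases and other modifiers of clock proteins 6 fell, 0 rose and 5 were not called, beside 25.0% of all genes lower and 19.8% higher. Of the 6, CSNK2B (-0.12) lost its call without any array but shControl replicate 1 (limma, adjusted p 0.0552 to 0.102), under cyclic loess (0.0699) and with the median of the probe sets (0.0613), and USP2 (-0.15) with the probe set of largest variance (0.266). FBXW11 and BTRC encode the beta-TrCP ligase subunits that mark phosphorylated PER for destruction. FBXW11 had 0.30, 0.37 and 0.36 in the shControl arrays and -0.31, -0.41 and -0.39 in the shFAM60A arrays, a fall of 0.71 on the log2 scale (limma, adjusted p = 9.78e-06) in which all 4 probe sets shared. BTRC fell by 0.52 (adjusted p = 1.19e-05), also in all 4 probe sets. FBXW7, a further F-box ligase subunit, fell by 0.44 in all 3 (adjusted p = 8.77e-05), and CSNK1D, the casein kinase that phosphorylates PER, by 0.30 in all 5, each in the highest level class (adjusted p = 1.08e-04). CSNK2A1 was at -0.011 (adjusted p = 0.81), with 3 probe sets called lower and 1 of the lowest class called higher at 0.41, and its sign turned to positive in each of 3 other scalings (0.0021 to 0.013), while without the lowest class it was a called fall of 0.15 (adjusted p = 0.0027) and with the probe set of largest variance a called rise of 0.41 (adjusted p = 0.0019). PPP1CB, a phosphatase subunit, was at -0.059 (adjusted p = 0.28), and with the probe set of largest variance a called fall of 0.34 (adjusted p = 0.0062).

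Of 6 partners and co-regulators, 2 rose and 1 fell, a share called near the 44.9% of all genes. NONO, an RNA-binding partner of PER proteins, rose by 0.67 in all 6 probe sets, each of the highest class (limma, adjusted p = 3.82e-06), with values of -0.36, -0.35 and -0.33 against 0.34, 0.34 and 0.31. All 6 are named x_at or s_at, so the share of other transcripts in this value is not known. CIPC, a protein that binds and inhibits CLOCK, rose by 0.48 (adjusted p = 1.72e-04). TIPIN, which pairs with TIMELESS at replication forks, fell by 0.14 (adjusted p = 0.0067), a call lost with the probe set of largest variance (-0.15, adjusted p = 0.0849). DDX5 (-0.041) and HDAC3 (0.013) did not pass, and HDAC3 turned negative without shControl replicate 2 or shFAM60A replicate 1.

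Of 7 measured genes known to be driven by the clock, 3 rose and 3 fell, beside 19.8% and 25.0% of all genes. WEE1, the kinase that holds cells before mitosis, fell 1.72-fold, with values of 0.47, 0.35 and 0.39 in the shControl arrays and -0.35, -0.39 and -0.39 in the shFAM60A arrays (log2 difference -0.78 ± 0.040; limma, adjusted p = 7.29e-06). NOCT, an enzyme whose transcript cycles in many tissues, fell by 0.42 (adjusted p = 1.03e-04). KLF10, a zinc finger factor, and ID2, a helix-loop-helix inhibitor, rose by 0.73 and 0.59 (adjusted p = 1.08e-05 and 3.61e-05), each with both probe sets in the highest class. All probe sets of WEE1, KLF10 and ID2 are named x_at or s_at, so the share of other transcripts in these values is not known. PPARA was at 0.059 (adjusted p = 0.23), but was a called rise of 0.40 with the probe set of largest variance (adjusted p = 0.0024) and of 0.11 without the lowest class (adjusted p = 0.0449). PPARGC1A fell by 0.11 (adjusted p = 0.032) with all 4 probe sets in the lowest class, and the call was lost under each of 3 other scalings (adjusted p 0.0636 to 0.0997), with the probe set of largest variance or the median of the probe sets (0.0992 and 0.0845), and when any array but shFAM60A replicate 1 was left out (0.0514 to 0.101).

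**Figure D4:**
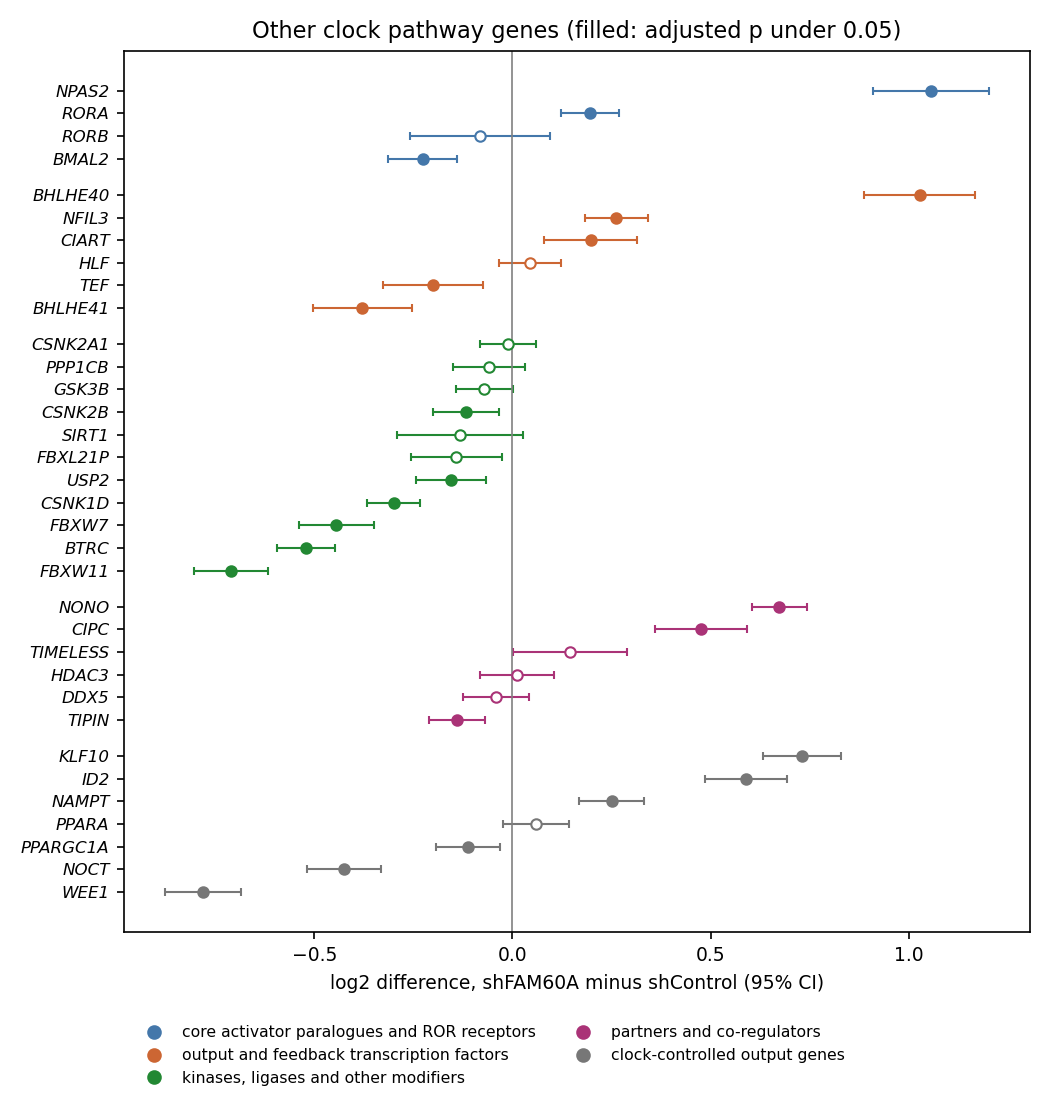
Log2 difference, shFAM60A minus shControl, with its 95% CI (horizontal axis) for the 34 measured genes of the wider clock list (vertical axis), coloured by class and filled where the adjusted p is under 0.05. NPAS2 and BHLHE40 lie at 1.06 and 1.03, and WEE1 at -0.78.

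An E-box in the listed promoter windows did not go with a single direction. Of 39 genes of the wider list, 31 had a window, and 9 held CACGTG, all measured. By window, 10 of 46 held it, beside 6.34% of all 35116 windows. Of the 9 genes, BHLHE40, CIART and CIPC rose, TEF, BHLHE41 and PPARGC1A fell, and SIRT1, TIMELESS and DDX5 did not pass. That is 6 of 9 called, beside 44.9% of all genes. Each of the 3 falls lost its call under some of the alternatives given above. SIRT1 was a called fall of 0.19 without the lowest level class (limma, adjusted p = 8.17e-04), and TIMELESS a called rise of 0.20 without shControl replicate 1 (adjusted p = 0.0205). Among the clock genes themselves the 2 with an E-box, PER1 and NR1D2, did not pass as gene means. The stretches of the paralogues that moved in opposite directions are shown with the E-box in capitals. BHLHE40 is at chr3:4979187-4979227, plus strand, and BHLHE41 at chr12:26125050-26125115, minus strand.
BHLHE40: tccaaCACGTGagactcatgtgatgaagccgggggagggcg
BHLHE41: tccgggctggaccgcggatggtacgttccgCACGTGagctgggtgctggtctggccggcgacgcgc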

How the data were processed

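Gene expression was measured on 6 Affymetrix arrays, 3 per group, grouped by sample title. The submitters' processing notes name RMA, with no program or version stated, and the 49395 deposited values per array were taken as log2 because RMA uses that base. The authors had centred them, since every probe set has a median of 0. Control probe sets (102) were not tested. Of those named by the platform annotation, 44994 had 1 symbol and 1832 had several. Genes were the mean of their probe sets with 1 symbol. Tests used limma 3.58.1 (lmFit, then eBayes) under R 4.3.3, once over 18132 genes and once over 49293 probe sets, adjusted by Benjamini-Hochberg with a threshold of 0.05, and tested on simulated data. Intervals are at 95%. The exact permutation test cannot go below p = 0.1 with 3 against 3 arrays. Precision is limited by having 3 arrays per label. The planned rule named every clock gene, SINHCAF and, per class of the wider list, up to 4 genes with the smallest p among those called and up to 2 with the largest p. TIMELESS and SIRT1 were named for their promoter motif. CSNK2B and USP2 were also named outside that rule, with the alternatives under which their calls were lost. Members and lists were chosen with earlier results of these data known. The main fits did not pair samples by replicate number. Correlations of the deviations of same-numbered arrays were 0.16, 0.059 and 0.078, each the highest for its arrays. Those of differently numbered arrays ran from -0.10 to 0.040, so pairing by number is not settled. Alternatives were other scalings, probe set rules, leaving out arrays, a replicate block and a robust fit.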

Additional observations from a re-analysis of the deposited data

How the results depend on the processing

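CLOCK, DBP and CRY1 kept direction and call under every alternative that gave a value, which DBP had not without probe sets named x_at or s_at. Leaving out 1 array at a time gave 1 to 2 clock genes called lower, and log2 differences of -0.152 to -0.0807 for BMAL1, 0.113 to 0.201 for PER3, -0.0842 to 0.0115 for CRY2, -0.0121 to 0.0328 for NR1D2, -0.0223 to 0.00103 for CSNK2A1 and -0.00994 to 0.0417 for HDAC3, with -0.0405 to 0.0658 for 11750155_a_at and -0.0382 to 0.105 for 11762382_x_at of PER2. With the replicate block PER3 passed (0.163, adjusted p = 0.0136), 8170 genes were called, no other clock gene mean changed its call, 1 probe set of PER2 and 1 of PER3 gained a call and 1 of PER3 lost it, and each array correlated best with its own number, a hint from the data and not the design. Scaling again made PER3 pass at 0.176 (median), 0.177 (quantile) and 0.188 (cyclic loess), the last also PER2 (0.111), for 4 clock genes higher, and put CSNK2A1 at 0.00212, 0.00632 and 0.013. With the probe set of largest variance 4 clock genes were higher and 3 lower, with PER1 at 0.341, PER2 at 0.447, CRY2 at -0.546, NR1D2 at -0.199, CSNK2A1 at 0.413 and DDX5 at 0.0823. Without probe sets named x_at or s_at 1 clock gene was higher, 8 clock probe sets of 20 and 12872 in all were called, fewer being tested, and PER2 was at -0.0164, NR1D2 at -0.0489, CSNK2A1 at 0.0518 and DDX5 at 0.00427. Without the lowest level class 3 clock genes were lower, CRY2 at -0.546 and BMAL1 at -0.118 (adjusted p = 0.0425) among them, and activators minus repressors was 0.128. BMAL1 has no probe set in that class, so its value was unchanged and only its adjusted p moved, with fewer probe sets in the fit. Other causes were not tested.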
